A study of Mus musculus with 6 samples.

Results

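The genes examined here make, carry, sense and break down retinoic acid: Rbp4, Stra6, Dhrs3, Aldh1a1, Aldh1a2, Aldh1a3, Crabp2, Cyp26a1 and Rarb. They were taken by symbol for their roles, with earlier results of these data known, and all 9 were found among the 20637 genes of the deposited tables. The tables hold poly(A) RNA-seq of whole uteri taken at postnatal day 21, 3 libraries from Nat10 f/f females (floxed controls) and 3 from Nat10 d/d females (Nat10-deleted). Nat10 encodes an RNA cytidine acetyltransferase, and the comparison asked which transcripts differ when it has been deleted. The deleting Cre, the cells in which it acts, the strain and whether animals were pooled are not given in the sources used here. The labels do not say that libraries came from separate animals, so p-values measure only the spread between these libraries.

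Retinol travels in blood bound to RBP4 and enters cells through the membrane receptor STRA6. Inside the cell it is oxidised to retinaldehyde, which the ALDH1A enzymes turn irreversibly into retinoic acid, while DHRS3 returns retinaldehyde to retinol. CRABP2 carries retinoic acid towards the nucleus, where it binds RAR and RXR receptors on DNA, and CYP26 enzymes oxidise what remains. Several of these genes, Cyp26a1, Rarb, Dhrs3, Stra6 and Crabp2 among them, are themselves known retinoic acid targets. Retinoic acid is known for its part in the fate of the Müllerian duct, from which the uterus forms.

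The best known DNA site of retinoic acid receptors is a direct repeat of 2 six-base units with a spacer of 5 bases. Each unit could be AGGTCA or AGTTCA or else GGGTCA or GGTTCA. This element was searched on both strands of RefSeq promoter windows (GRCm38.p6, 250 bases before to 50 after each start). A window was found for 7 of the 9 genes, all except Aldh1a3 and Crabp2, and the element lay in the windows of Rarb and Cyp26a1. It occurred in 32 of 32851 windows, or 0.0974%. Counted by gene, it occurred in 31 of 27025 genes with a window (0.115%), and in 0 of the 34 other retinoid pathway genes with one. The sequences are shown because they mark the pair of genes, among the 7 with a window, in which the element was found. Each is read 5′ to 3′ along the repeat, and capitals mark the repeat units.
Rarb: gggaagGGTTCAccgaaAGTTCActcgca
Cyp26a1: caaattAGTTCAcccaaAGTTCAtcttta
The Rarb sequence is at chr14:16575507-16575535 (minus strand, like the gene), and its element lies 53 to 37 bases before the RefSeq start. In GENCODE M21 the same bases lie within annotated exons of Rarb. The Cyp26a1 sequence is at chr19:37697770-37697798 on the minus strand, opposite to the gene, with the element 32 to 16 bases before the RefSeq start. Counted from the 5′ end of the element, 15 of 17 bases were the same in both, and Cyp26a1 differed from Rarb by G1A and G9C. On the strand of the gene, the 140 bases that end where GENCODE M21 places the first Cyp26a1 exon (chr19:37697658-37697797) hold the same element in reverse.
Cyp26a1 upstream: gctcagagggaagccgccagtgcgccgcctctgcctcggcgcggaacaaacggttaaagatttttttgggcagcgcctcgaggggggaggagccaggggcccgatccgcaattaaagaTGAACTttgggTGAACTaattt
A match describes the letters of the window and is not a measured binding site, and a window without one says nothing about the receptor.

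Values are FPKM, fragments scaled for gene length and sequencing depth, as the authors deposited them. Fitted changes are on the log2(FPKM + 1) scale as deleted minus control, from limma over the 12640 genes that reached 1 FPKM in at least 3 libraries. All 9 genes passed this filter, 8 of them in 6 libraries and Crabp2 in 4. No gene passed an adjusted p of 0.05 in limma (0 of 12640, or 0.0%), against 630 (4.98%) at an unadjusted p under 0.05. The deepest library was an estimated 1.26 times as deep as the shallowest. Nat10, as a check of the labels, was listed at 13.2, 16.4 and 9.95 FPKM in controls and at 5.57, 5.23 and 5.53 in deleted uteri, without overlap (limma adjusted p 0.669). Deleted replicate 2 stood apart: it was the highest or the lowest of the 6 libraries for 55.8% of tested genes. The summed FPKM of 6 proliferation markers was 121 in this library, 10.2 and 5.7 in deleted replicates 1 and 3, and 51, 12.4 and 30.6 in controls 1 to 3.

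None of the 9 genes was called, the smallest adjusted p in limma being 0.922. Unadjusted p-values under 0.05 were found for 2 of them, 1 higher in deleted uteri (Aldh1a1, against 2.68% of all tested genes) and 1 lower (Aldh1a2, against 2.3%). Neither held its unadjusted p when most single libraries were left out: Aldh1a2 had one under 0.05 in 1 of 6 such fits (without deleted replicate 2) and Aldh1a1 in 2 of 6 (without control replicate 1 or deleted replicate 3). The only member under 0.05 without deleted replicate 1 was Rbp4, and none was without control replicate 2 or 3. The groups did not overlap for 1 of the 9, Aldh1a2, where 10.7% of all tested genes did not overlap (6.12% higher in deleted uteri and 4.6% lower). The median change was 0.11 over the 9 genes and 0.03 over all tested genes, with 5 of the 9 above 0 and 4 below.

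In floxed controls, levels per length ran from Aldh1a2 at 30 ± 2.18 FPKM (SD, n = 3) down to Crabp2 at 1.33 ± 1.13 (SD, n = 3). Aldh1a2 lay above every library of the next gene, Aldh1a1. Aldh1a1, Dhrs3, Stra6, Aldh1a3 and Rbp4 followed in that order, and each overlapped its neighbour. All of them lay above the trio of Cyp26a1, Rarb and Crabp2 in every control library, and within the trio neighbours overlapped. In deleted uteri Aldh1a1 came first by its mean and overlapped Aldh1a2.

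**Figure D1:**
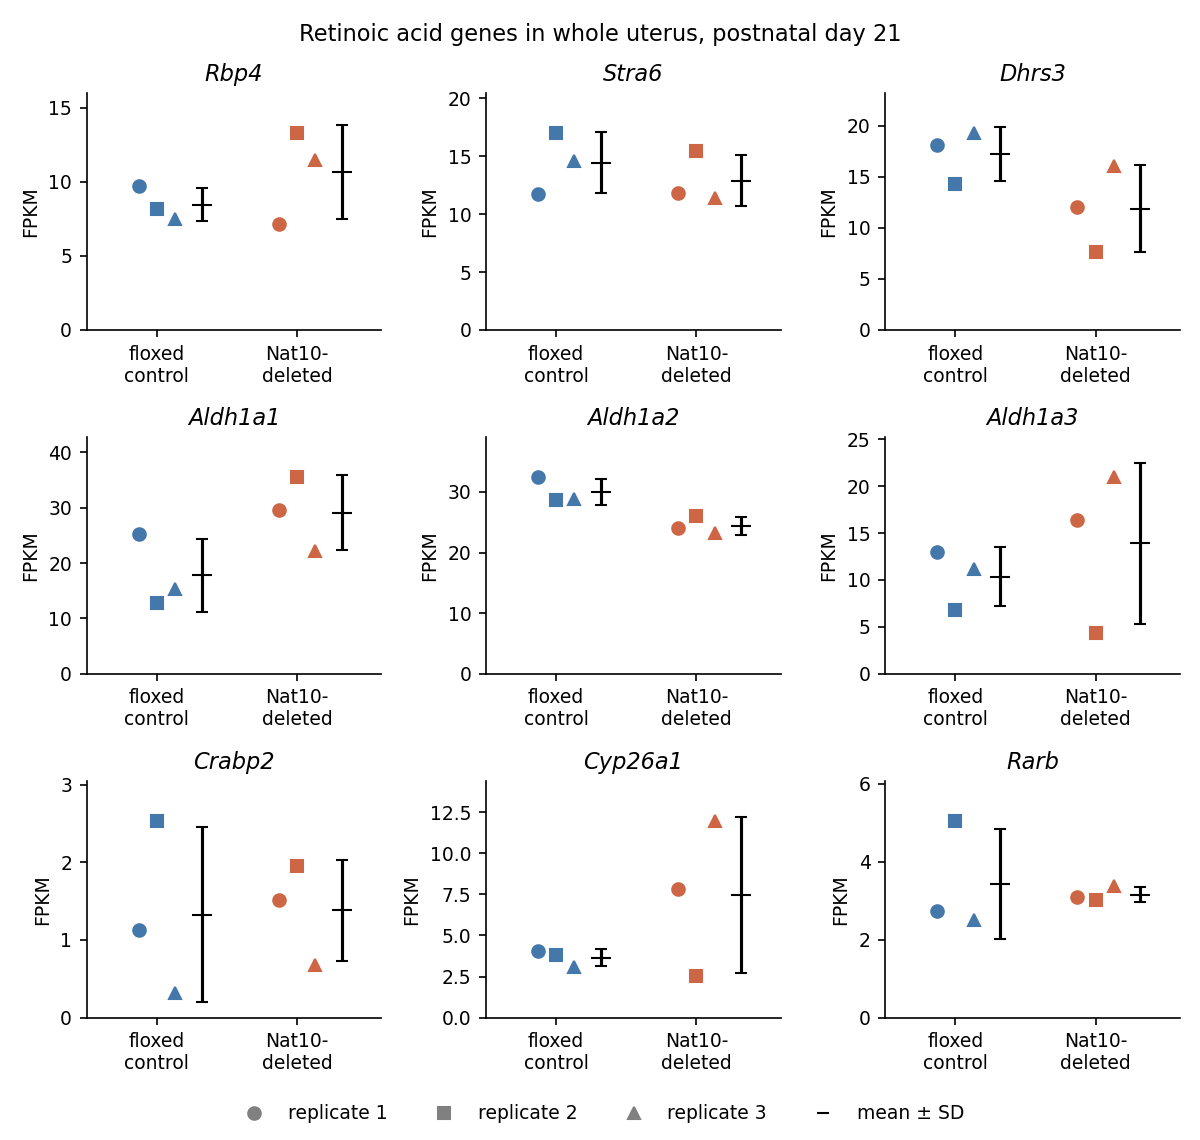
FPKM (y axis, starting at 0, with its own range in each panel) of the 9 retinoic acid genes in floxed control (blue) and Nat10-deleted (orange) uteri, with 1 point per library, its shape giving the replicate number, and the mean with its SD in black. Aldh1a2 is the 1 gene whose groups do not overlap, and the deleted libraries of Cyp26a1 run from 2.54 to 12.

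Aldh1a2 encodes the retinaldehyde dehydrogenase that supplies most retinoic acid in the embryo and is known from stromal and mesothelial cells. It was listed at 32.5, 28.7 and 28.8 FPKM in controls 1 to 3 and at 24, 26.1 and 23.2 in deleted replicates 1 to 3. Every deleted library lay below every control. The deleted mean of 24.4 ± 1.49 FPKM (SD, n = 3) was 81.3% of the control mean given above. The log2 change was -0.29 (SE 0.11, 95% interval -0.54 to -0.04; limma p 0.0297, adjusted p 0.922), and the exact two-sided permutation p was 0.1, the smallest that 3 libraries against 3 allow. In whole tissue, fewer cells of a type and less RNA per cell cannot be told apart. The summed FPKM of 8 stroma markers, none at 0, was 3062 to 3477 in controls and 2588 to 3468 in deleted uteri, so the groups overlapped. Of these markers, Wnt5a lay below every control in each deleted library, as Aldh1a2 did (76.2, 56.1 and 53.2 FPKM in controls, 42.9, 44.5 and 45.6 in deleted uteri), and the others overlapped. The sums of 5 mesothelium markers overlapped too, at 221 to 260 among controls against 213 to 259 among deleted uteri, but most of each sum was Krt19, which epithelium also expresses. Of these 5, Wt1 (34.7, 39.3 and 38.6 FPKM in controls, 43.5, 35.7 and 37.2 in deleted uteri) and Upk3b (15.5, 22.7 and 23.1 against 17.6, 16 and 14.5) overlapped, as Krt19 did. The other 2 lay below every control in each deleted library, as did 4.6% of all tested genes. Msln was listed at 4.08, 5.41 and 6.24 FPKM in controls and at 3.57, 3.67 and 2.83 in deleted uteri, and Lrrn4 at 2.56, 3.7 and 3.17 against 1.38, 2.24 and 1.1. The 5 endothelium markers summed to 225 to 254 in controls and 196 to 216 in deleted uteri, without overlap, and 1 of them, Kdr, was apart on its own. The part of these markers in the Aldh1a2 values was not tested.

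Aldh1a1 encodes a second cytosolic retinaldehyde dehydrogenase, which also oxidises other aldehydes. Its controls were listed at 25.2, 12.8 and 15.3 FPKM and the deleted libraries at 29.6, 35.6 and 22.1. The groups overlapped, because control 1 lay above deleted replicate 3. Among the 6 libraries, control 1 also had the highest sums of 7 fat markers (83.8 FPKM) and of 5 blood markers (5581 FPKM). The part of these markers in the Aldh1a1 values was not tested. The deleted mean of 29.1 ± 6.77 FPKM stood at 1.64 times the control mean of 17.8 ± 6.53 (both SD, n = 3). The log2 change was 0.71 (SE 0.26, 95% interval 0.1 to 1.33; limma p 0.0283, adjusted p 0.922), and the exact permutation p was 0.2. It ranged from 0.52 without control replicate 2 to 0.98 without control replicate 1. Mouse chromosome 19 also carries Aldh1a7, a close copy whose transcript matched that of Aldh1a1 at 88.99% of 2043 aligned bases, with identical runs of up to 100 bases. Reads of this pair may therefore have been split, and both are uncertain. Aldh1a7 was listed at 0.182 to 0.514 FPKM in 5 libraries and at 2.85 in deleted replicate 2, where it amounted to 8.01% of Aldh1a1.

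Aldh1a3 encodes the third enzyme of the family. It was listed at 13, 6.83 and 11.2 FPKM in controls and at 16.4, 4.38 and 21 in deleted replicates 1, 2 and 3. Deleted replicates 1 and 3 lay above every control and deleted replicate 2 below every control. The log2 change over all libraries was 0.21 (SE 0.5, 95% interval -0.97 to 1.38; limma adjusted p 0.986). Without deleted replicate 2 it was 0.83 (limma p 0.00913, adjusted p 0.237, where the adjusted p ranged from 0.237 to 1 over all settings). It was below 0 without control replicate 2 (-0.04), deleted replicate 1 (-0.02) or deleted replicate 3 (-0.19).

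The 3 enzymes together summed to 58.1 ± 11.4 FPKM among controls against 67.4 ± 2.25 among deleted uteri (both SD, n = 3), a gap of 9.34 that the SD of the controls exceeds (exact permutation p 0.4). Their make-up was then compared, a measure chosen after the values were seen. Aldh1a2 held 46%, 59.4% and 52.1% of the sum in controls 1 to 3 and 34.3%, 39.5% and 35% in deleted replicates 1 to 3. It was thus the most abundant of the family in every control, and below every control share in each deleted library. The ratio of Aldh1a1 to Aldh1a2 was 0.774, 0.446 and 0.531 in controls and 1.24, 1.37 and 0.955 in deleted uteri, again without overlap. The exact permutation p of its log2 value was 0.1, the smallest possible, for a difference of 1.05. As the ratio was chosen after the values were seen, nothing is read from this p. The summed FPKM of 8 epithelium markers overlapped between groups (591, 667 and 713 in controls, 753, 673 and 773 in deleted uteri). Of these, Epcam (47, 50.5 and 56.9 in controls, 62.8, 64.2 and 58 in deleted uteri) and Wnt7a (9.65, 13.4 and 13.8 against 21.1, 24.7 and 14.8) lay above every control in each deleted library. Foxa2, a marker of glands, lay below every control (2.72, 2.18 and 2.06 against 1.14, 1.25 and 1.75), and the other 5 overlapped. Of all tested genes, 6.12% lay above every control in each deleted library and 4.6% lay below. The part of the epithelium markers in the make-up of the family was not tested. Aldh1a3 held 18.3%, 14.1% and 20.3% in controls and 23.4%, 6.64% and 31.7% in deleted replicates 1 to 3.

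**Figure D2:**
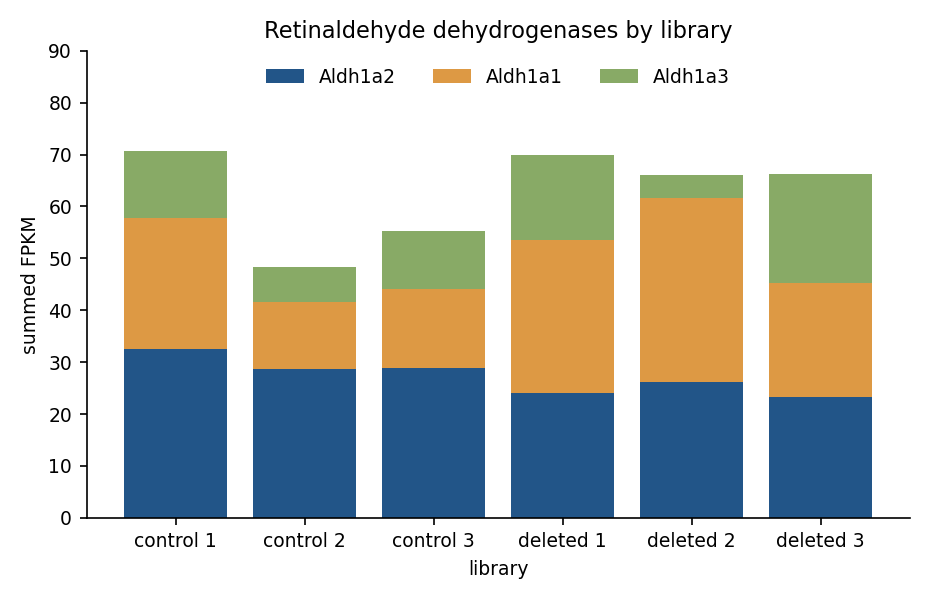
Stacked FPKM (y axis, starting at 0) of Aldh1a2 (dark blue), Aldh1a1 (orange) and Aldh1a3 (green) in each of the 6 libraries (x axis). The dark blue part is the largest in each control, while in deleted replicates 1 and 2 the orange part exceeds it and in deleted replicate 3 both are near 35% and 33.4% of the sum.

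Cyp26a1 encodes a cytochrome P450 that hydroxylates retinoic acid and is a sensitive retinoic acid target through the element shown above. Controls were listed at 4.05, 3.82 and 3.07 FPKM and deleted replicates 1, 2 and 3 at 7.84, 2.54 and 12. Controls lay close together, deleted replicates 1 and 3 lay above all of them and deleted replicate 2 below all of them. The deleted mean of 7.47 ± 4.75 FPKM stood at 2.05 times the control mean of 3.65 ± 0.517 (both SD, n = 3). The log2 change was 0.68 (SE 0.43, 95% interval -0.31 to 1.68; limma p 0.152, adjusted p 0.922). Without deleted replicate 2 it was 1.21 (SE 0.19; limma p 0.00026), and its adjusted p of 0.0941 did not pass the threshold either (range over all settings 0.0941 to 1). Without deleted replicate 3 the change was 0.27. The log2 SD of the deleted group was 5.84 times the log2 SD of the controls, beside a median of 1.73 over all tested genes.

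Rarb encodes retinoic acid receptor beta and carries the other copy of the element. It was listed at 2.73, 5.06 and 2.5 FPKM in controls and at 3.09, 3.02 and 3.37 in deleted uteri. All 3 deleted values fell between the lowest and the highest control, and control 2 stood well above the other libraries. The log2 change was -0.05 (SE 0.22, 95% interval -0.56 to 0.47; limma adjusted p 0.991), and 0.2 without control replicate 2. Of 5265 exonic bases of Rarb in GENCODE M21, 1793 also belong to exons of Top2b on the opposite strand. Top2b was listed at a mean of 38 FPKM in controls and 38.6 in deleted uteri. Since the sources used here do not state that counting used strand, Rarb values are uncertain. The pair of genes with the element thus did not share an order of libraries: Cyp26a1 was lowest in deleted replicate 2 and Rarb in control 3.

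Dhrs3, the reductase that turns retinaldehyde back into retinol, was listed at 18.1, 14.3 and 19.3 FPKM in controls and at 12, 7.59 and 16.1 in deleted replicates 1, 2 and 3. Deleted replicates 1 and 2 lay below every control, while replicate 3 lay above control 2. The deleted mean of 11.9 ± 4.27 FPKM (SD, n = 3) was 69.1% of the control mean of 17.2 ± 2.63 (SD, n = 3). The log2 change was -0.54 (SE 0.25, 95% interval -1.12 to 0.04; limma p 0.0626, adjusted p 0.922). It was -0.28 without deleted replicate 2 and -0.78 without deleted replicate 3.

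Rbp4, the plasma carrier of retinol, was listed at 9.74, 8.14 and 7.52 FPKM in controls and at 7.18, 13.3 and 11.5 in deleted replicates 1, 2 and 3. Deleted replicates 2 and 3 lay above every control and replicate 1 below every control. The log2 change was 0.27 (SE 0.21, 95% interval -0.23 to 0.77; limma adjusted p 0.928), 0.51 without deleted replicate 1 and 0.1 without deleted replicate 2. Fat and liver are the best known sources of Rbp4. The 7 fat markers summed to 83.8, 2 and 6.63 FPKM in controls 1 to 3 and to 19.1, 9.02 and 2.36 in deleted replicates 1 to 3. Among controls, both the fat marker sum and Rbp4 were highest in control 1, while over all libraries Rbp4 was highest in deleted replicate 2. The part of fat RNA in the Rbp4 values was not tested. The 5 liver markers summed to at most 1.03 FPKM in any library, with Apoa1 at 0 in all of them.

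Stra6, the RBP4 receptor, was listed at 11.7, 17 and 14.6 FPKM in controls and at 11.8, 15.4 and 11.4 in deleted uteri. The ranges overlapped over most of their length, and the log2 change was -0.16 (SE 0.17, 95% interval -0.55 to 0.24; limma adjusted p 0.949). When 1 library was left out, the change ranged from -0.29 to -0.04. Crabp2, the carrier that hands retinoic acid to its receptors, was close to the filter at 1.13, 2.54 and 0.315 FPKM in controls and 1.51, 1.96 and 0.677 in deleted uteri. Its values differed 8.06 times between the highest and lowest library, and the control range enclosed every deleted value. Its log2 change was 0.11 (SE 0.38, 95% interval -0.78 to 1; limma adjusted p 0.989), -0.25 without control replicate 3 and -0.07 without deleted replicate 2.

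Likeness between the members was described by correlation over the 6 libraries, which share their groups and the extreme deleted replicate 2. Of 36 pairs, Aldh1a3 and Cyp26a1 were the most alike (Pearson r = 0.84, Spearman rho = 0.94 on log2 values), followed by Crabp2 and Rarb (r = 0.69). Aldh1a3 and Cyp26a1 were both highest in deleted replicate 3, then in deleted replicate 1, and lowest in deleted replicate 2. Stra6 and Aldh1a3 ran most in opposite directions (r = -0.86, rho = -0.89). The pattern of highest in deleted replicate 3 and lowest in deleted replicate 2 was shared by 12.3% of all tested genes and by 4 of 28 tested genes of the pathway list described below (14.3%: Adh1, Rdh10, Rdh14 and Ncoa2). Of these, values are given for Adh1, an alcohol dehydrogenase that can oxidise retinol, and for Rdh10, the retinol dehydrogenase of the embryo, the latter singled out after its values were seen. Adh1 was listed at 41.9, 15.4 and 50.2 FPKM in deleted replicates 1 to 3 and at 22.7 to 34.4 in controls. Rdh10 was listed at 16, 11.1 and 18.9 in deleted replicates 1 to 3 and at 12.3 to 14.7 in controls. Crabp1, a cytoplasmic retinoic acid binding protein, ran the other way, with 7.08, 43.8 and 4.19 FPKM in deleted replicates 1 to 3 and 15.6, 9.67 and 7.26 in controls. The proliferation markers were lowest in deleted replicates 1 and 3 and highest in deleted replicate 2, and their part in these values was not tested.

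**Figure D3:**
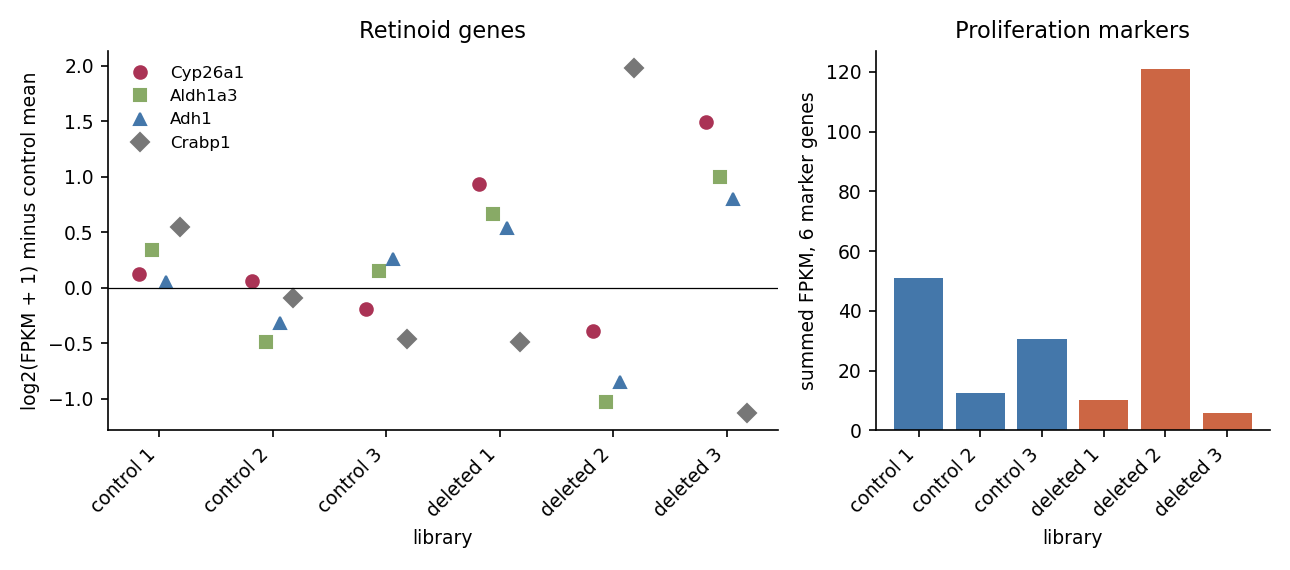
Left, log2(FPKM + 1) of Cyp26a1, Aldh1a3, Adh1 and Crabp1 relative to each gene's control mean (y axis) in each of the 6 libraries (x axis). Right, summed FPKM of 6 proliferation markers in the same libraries, controls in blue and deleted in orange. Cyp26a1, Aldh1a3 and Adh1 lie above 0 in deleted replicates 1 and 3 and below 0 in deleted replicate 2, where Crabp1 and the marker sum of 121 are highest.

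For each member, the gene most like it among all tested genes was found by Pearson r over the 6 libraries. These were Serinc3 for Aldh1a3 (r = 0.9988), Cldn34c1 for Cyp26a1 (0.998), Rbm12 for Rarb (0.9967), Phldb1 for Dhrs3 (0.9962) and Lrrc55 for Aldh1a2 (0.996). Mrpl45 was most like Aldh1a1 (0.9954), Golga7 was most like Crabp2 (0.9949), Fam168a was most like Stra6 (0.9926) and Ap1m2 was most like Rbp4 (0.9878). With 6 libraries such values are common: between 12 and 134 genes had an r above 0.95 with a given member.

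The other genes of retinoid metabolism and signalling were taken from a list of 46 genes, of which 28 passed the filter. None of the 28 was called (limma, adjusted p of 0.922 or more). The single gene with an unadjusted p under 0.05 was Rdh1, lower in deleted uteri, against 2.3% of all tested genes in that direction. Because Rdh1 passed the filter through its controls alone, nothing is read from its test, and without it 0 of 27 genes had such a p and 1 had groups that did not overlap. Of the 27, 5 (18.5%) had an unadjusted p under 0.05 without deleted replicate 2 and 5 without deleted replicate 3, where the share over all tested genes also rose, to 13.7% and 11.1%. Groups did not overlap for 2 genes, Rdh1 and Ncor1, both lower, against 4.6% of all tested genes. The list median was -0.07, beside 0.03 for all tested genes, with 9 genes above 0 and 19 below. Relative to each gene's own mean in the controls, the median of the list was -0.217, -0.145 and 0.011 in deleted replicates 1, 2 and 3, beside 0.012, 0.027 and 0.026 for all tested genes.

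Rdh1, a retinol dehydrogenase, was listed at 1.65, 1.77 and 1.68 FPKM in controls and at 0.207, 0.781 and 0.783 in deleted uteri. Its deleted libraries all lay below the filter, so that it had to differ to be tested. Its log2 change was -0.79 (SE 0.21; limma p 0.00618, adjusted p 0.922), and -1.53 (SE 0.48) with a pseudocount of 0.1. The most abundant dehydrogenase of the list, Adh5, stood at 76.9 ± 6.8 FPKM among controls against 78 ± 8.81 among deleted uteri (both SD, n = 3). Of 9 tested genes of retinol oxidation, 6 had a change above 0 and 3 below.

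None of the receptors and cofactors was called. All 4 tested receptors other than Rarb had a change below 0, from -0.19 to -0.03, among them Rarg (controls 33.6 ± 1.82 FPKM, deleted 29.3 ± 2.83, both SD, n = 3) and Rxrb (controls 28.7 ± 2.17, deleted 27.3 ± 2.94). So had all 6 cofactors, with a median of -0.17, where 43.4% of all tested genes had a change below 0. Deleted replicate 3 nevertheless lay above the control mean for 7 of these 10 genes. Groups did not overlap for 10.7% of all tested genes, and here for 1 of the 10. This was Ncor1, a corepressor that sits on receptors without ligand, listed at 38.7, 36.5 and 36.9 FPKM in controls and at 32.5, 30.9 and 35.9 in deleted uteri. Every deleted library lay below every control, with a fitted change of -0.17 (SE 0.1) and an adjusted p of 0.922 in limma.

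In the remaining roles, Cyp26b1, the other main CYP26 enzyme, was listed at 7.26, 3.76 and 2.96 FPKM in controls and at 1.88, 1.56 and 5.37 in deleted replicates 1 to 3. Its fitted change had the opposite sign to that of Cyp26a1, at -0.58 (SE 0.4; limma adjusted p 0.926). Cyp26c1 was listed at no more than 0.35 FPKM. The retinol carrier Rbp7 had a log2 change of -0.17, and Fabp5, which also binds retinoic acid, one of 0.1. Rarres2 and Tgm2 are both known to respond to retinoic acid. Rarres2 was at 220 ± 28.6 FPKM among controls against 218 ± 24 among deleted uteri, and Tgm2 at 175 ± 20.1 against 154 ± 19.7 (all SD, n = 3), with overlapping groups for both. Aldh8a1 was listed at no more than 0.207 FPKM. Stra8, Hoxb1 and Cdx1, response genes of germ cells and embryos, were listed at 0 in all 6 libraries.

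**Figure D4:**
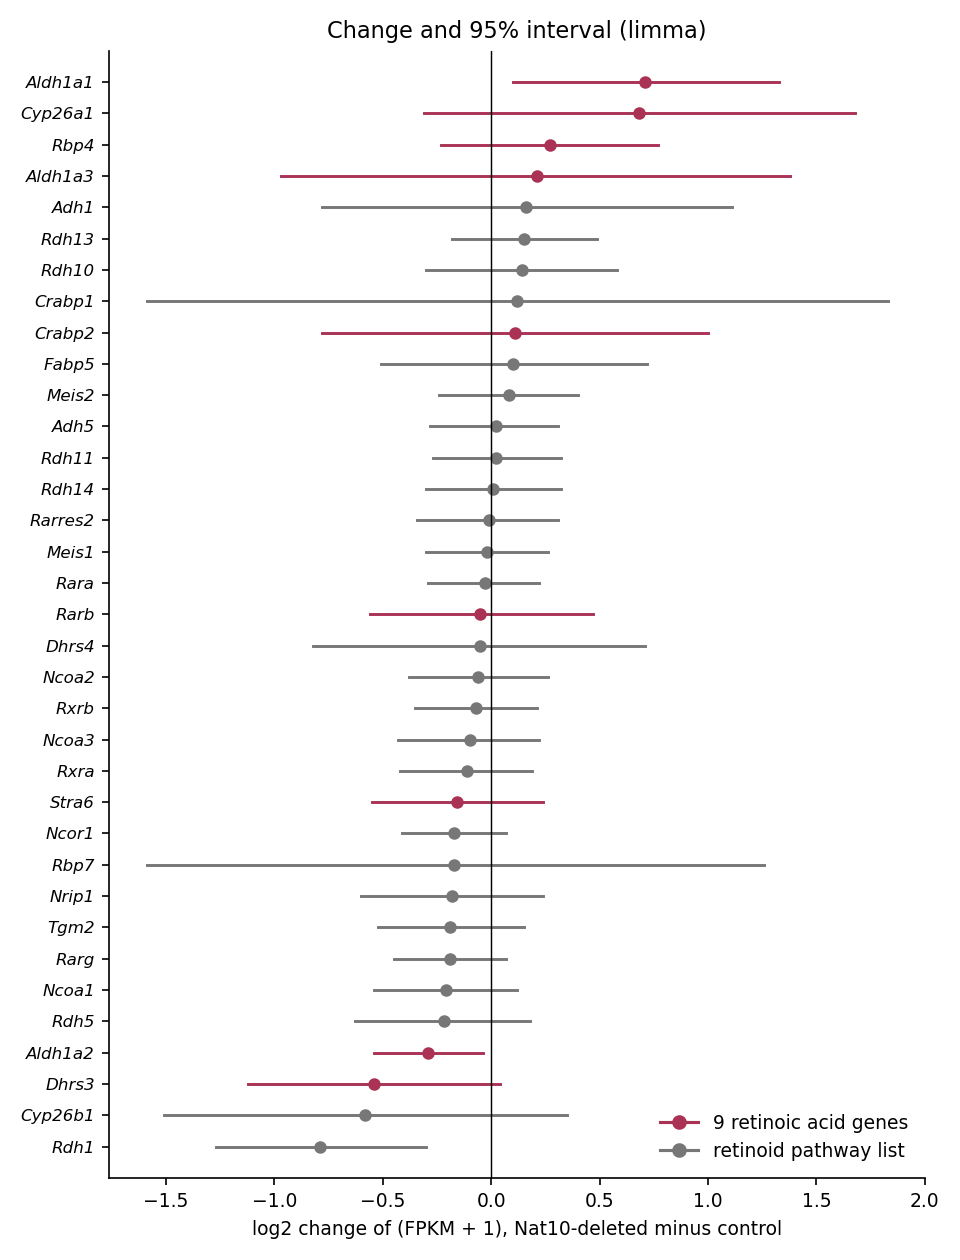
Fitted log2 change of FPKM + 1, Nat10-deleted minus control (x axis), with its 95% interval from limma, for the 9 retinoic acid genes (red) and 26 tested genes of the retinoid pathway list (grey), ordered by change. The intervals of Aldh1a1 and Aldh1a2 exclude 0 before any adjustment for the number of genes tested, and that of Rdh1 does so after a filter which it passed through its controls alone.

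The 9 genes lie on 6 chromosomes of GRCm38. Aldh1a1 (ENSMUSG00000053279) is at chr19:20492715-20643465, Cyp26a1 (ENSMUSG00000024987) at chr19:37697798-37701536 and Rbp4 (ENSMUSG00000024990) at chr19:38116629-38125281. Aldh1a2 (ENSMUSG00000013584) is at chr9:71215789-71296243 and Stra6 (ENSMUSG00000032327) at chr9:58063788-58153996. Aldh1a3 (ENSMUSG00000015134) is at chr7:66390890-66427517, Crabp2 (ENSMUSG00000004885) at chr3:87948666-87953376, Dhrs3 (ENSMUSG00000066026) at chr4:144892827-144928209 and Rarb (ENSMUSG00000017491) at chr14:16430839-16819156. Although Cyp26a1 and Rbp4 are close neighbours, their correlation over the 6 libraries was -0.03.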

How the data were processed

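The values are FPKM, which the authors deposited as 1 table per library. The unit was inferred from the values and from Cufflinks 2.2.1, which the submitters' processing notes name with HISAT2 2.2.1 and mm10, and no file header states it. Annotation, strandedness and filters are not given in the sources used here. Per the labels' protocols, TRIzol was used on the tissue and the TruSeq RNA kit for the libraries. Total read counts are unknown, so no counting intervals are given. Relative depth was estimated from the smallest values and ranged 1.26 times. FPKM summed to between 500764 and 549263 per library.

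Genes with at least 1 FPKM in at least 3 libraries (12640) were fitted as log2(FPKM + 1) with limma 3.58.1 in R 4.3.3 (eBayes with a mean-variance trend), group as the only term, two-sided, adjusted by Benjamini-Hochberg over all genes tested. This scale understates changes of low genes. In simulated data for this comparison, 87% of genes changed by 1.5 log2 units were called and 5.33% of calls were false. The simulation gave both groups the same spread and set no library apart, unlike deleted replicate 2 in these data. The largest fitted change of a member was 0.71, so the 87% says nothing about changes of that size. Single values were also compared by exact permutation. Of 20637 identifiers, 20558 matched GENCODE M21 (GRCm38, the build mm10 names). Promoter windows are RefSeq's (GRCm38.p6). Rbpr2 was matched as Stra6l through RefSeq synonyms.

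The members and lists were chosen with earlier results of these data known. Text names Nat10, the members, pathway genes at an unadjusted p under 0.05, the 2 most abundant pathway genes of each role, and each member's most similar gene, except 2 pathway genes that count in the list but are not reported here. Others are said to be chosen after their values were seen, or stand in a count. The 13 alternatives changed scaling, pseudocount, filter, trend and blocking or left out a library. Python 3.11.15, pandas 2.3.3, scipy 1.17.1, Biopython 1.88 and matplotlib 3.10.9 were used.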

Additional observations from a re-analysis of the deposited data

How the results depend on the processing

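No member and no pathway list gene passed an adjusted p of 0.05 in limma under any of the 13 alternatives. Over all tested genes the count stayed at 0 except without deleted replicate 2, so that leaving out 1 library gave 0 to 12 calls and 352 to 1726 genes at an unadjusted p under 0.05 (1726 without deleted replicate 2 and 1403 without deleted replicate 3, against 352 to 472 without any of the others). Members at an unadjusted p under 0.05 numbered 0 to 3 when 1 library was left out, and pathway list genes 1 to 6, or 0 to 5 without Rdh1. The pathway count was 2 after quantile normalization, 2 after median centring, 3 with no low-value filter and 0 with FPKM of at least 1 in every library. The pathway median was -0.1 after quantile normalization, -0.1 after median centring, -0.02 with no low-value filter, -0.06 with FPKM of at least 1 in every library, and -0.11 to -0.05 when 1 library was left out. The cause was not tested, except that the filters change which genes are in the list. Signs of Aldh1a3 (-0.19 to 0.83), Crabp2 (-0.25 to 0.47) and Rarb (-0.19 to 0.2) depended on which library was left out, and the other 6 members kept theirs under every alternative. The libraries share replicate numbers, but same-numbered libraries did not deviate together (correlations of -0.341, -0.029 and 0.1), so the numbers were not taken as pairs. With the replicate block 0 genes were called, 726 had an unadjusted p under 0.05 and 3 members did, Dhrs3 joining with a limma p of 0.0118 (adjusted p 0.849, range over all settings 0.436 to 1). Crabp2, Rbp7 and Rdh1 could not be fitted with FPKM of at least 1 in every library, and the alternative for counts was not run because the files hold FPKM. With 3 libraries a group and an unknown depth, differences were limited in precision. The SE was largest for Aldh1a3 (0.5), Cyp26a1 (0.43) and the low gene Crabp2 (0.38), while that of Rarb was 0.22.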

Other observations

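Besides Rarb and Cyp26a1, 4 tested genes carried the same receptor element in their promoter windows, and none was called. Blvrb, which encodes biliverdin reductase B, was at 48 ± 7.76 FPKM among controls against 42.5 ± 2.72 among deleted uteri (both SD, n = 3), a log2 change of -0.16. Syndig1 was at 24 ± 3.36 and 25.8 ± 5.85 (0.09), Tnfsf13b, the B-cell survival factor BAFF, at 4.17 ± 0.987 and 4.78 ± 1.41 (0.15), and Gm4631 at 2.4 ± 0.282 and 2.73 ± 0.371 (0.13). Each of these differences was smaller than the larger SD of the 2 groups. Among the 6 tested genes with the element, the ratio of 2.05 for Cyp26a1 thus stood beside 5 means between 88.6% and 115% of control.

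Of the 15 pathway genes above 0 and under the filter, 3 (20%) had groups that did not overlap, against 8.14% of the 4105 genes above 0 and under the filter. They were singled out after their values were seen. Lrat, the enzyme that stores retinol as esters, was listed at 0.509, 0.587 and 0.37 FPKM in controls and at 0.165, 0.261 and 0.239 in deleted uteri. Stra6l, which encodes a second receptor for RBP4, was listed at 0.263, 0.232 and 0.366 in controls and at 0.82, 0.631 and 0.607 in deleted uteri. Aldh1a7, which may share reads with Aldh1a1, was listed at 0.287, 0.275 and 0.182 in controls and at 0.514, 2.85 and 0.458 in deleted uteri. All 3 were outside the fit with the filter. With no low-value filter limma gave log2 changes of -0.28 for Lrat (p 0.00729, adjusted p 0.873), 0.39 for Stra6l (p 0.0019, adjusted p 0.772) and 0.71 for Aldh1a7 (p 0.0951, adjusted p 0.921), so none was called.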
